A study of Rattus norvegicus with 2 samples.

Results

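The genes described here are Gtsf1, Polq, Pcbp2, Ndufv3, LOC688778, Capn13, Ccdc77 and Alg11, 8 symbols that occupy 9 of the 25399 rows of the deposited gene table because Ndufv3 stands on 2 rows. They were picked from earlier results of these data as genes among the most different between methamphetamine and saline in excitatory neurons (Gtsf1, Polq, Pcbp2, Ndufv3, LOC688778) or inhibitory neurons (Capn13, Ccdc77, Alg11). Their ratios in those classes are therefore given as a description, and the question was whether each ratio was alike over the cell types or specific to some.

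The METH group was 8-week-old male Sprague-Dawley rats given 1 mg/kg methamphetamine intraperitoneally for 7 days, and the saline group was rats of the same age, sex and strain given saline by the same route for 7 days. Orbitofrontal cortex of 4 animals per group was made into 1 single-nucleus library per group, so the animals behind a value cannot be separated and no test between groups could be made. With 1 library per group there is no replicate error and no p-value, and every ratio is a description of these libraries. Ratios below are log2 METH over saline of CPM, the unique molecules (UMIs) of a gene scaled to the same total of UMIs in every type and library, with an exact 95% interval in parentheses that covers counting error only.

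The METH library held 5543 barcodes and 44969322 UMIs, and the saline library 6969 barcodes and 42221257 UMIs, with a median per barcode of 6401 UMIs in METH and 4992 UMIs in saline. After filtering, 5167 METH and 6508 saline nuclei were kept, and 9 barcode sequences occurred in both libraries. They were sorted by marker genes into 16 types with at least 50 nuclei in each library: 6 excitatory (layer 2/3 IT, layer 4/5 IT, layer 5/6 IT, layer 5 ET, layer 5/6 NP, layer 6 CT), 5 inhibitory (Pvalb, Sst, Vip, Lamp5, Sncg), and astrocytes, oligodendrocytes, their precursors, endothelial and mural cells. Excitatory nuclei were deeper in METH, with a median of 9374 UMIs in 2139 nuclei, against 6398 in 3489 saline nuclei. A gene counted as measured in a type once the libraries together held 100 UMIs of it there. It passed the size rule when not only the ratio but also the end of its interval closer to 0 lay beyond 1.5-fold. In sums over nuclei, fewer nuclei with a gene and less of its RNA per nucleus cannot be told apart. IT, ET, NP and CT name projection classes of excitatory neurons, and Pvalb, Sst, Vip, Lamp5 and Sncg are marker genes of interneuron classes.

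The 8 genes belong to separate processes. Gtsf1 encodes a small zinc finger protein that in mouse germ cells works with PIWI proteins to silence transposons, Polq encodes the DNA polymerase of microhomology-mediated end joining, and Pcbp2 encodes a poly(rC)-binding protein that acts on RNA stability and translation. Ndufv3 encodes an accessory subunit of the NADH-binding module of respiratory complex I, Capn13 a member of the calpain family of cysteine proteases, Ccdc77 a coiled-coil protein, and Alg11 a mannosyltransferase that builds the lipid-linked sugar precursor of N-glycosylation. LOC688778 carries the number of a rat gene record that RefSeq names Aldh3b3, an aldehyde dehydrogenase family gene.

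Of the 8 symbols, 6 matched the RefSeq promoter table of rat build GRCr8, and LOC688778 matched through its record number. The 250 bases before the annotated start are shown for 4 genes with ratios alike in sign in both neuron classes, Gtsf1 and Capn13 (lower in METH) and Ndufv3 and Ccdc77 (higher in METH for 1 Ndufv3 row), read 5′ to 3′ along the gene. Polq and Pcbp2 were also lower in METH in both classes, and their windows are not shown. Capitals mark every match, on either strand, to the CCAAT box (CCAAT), the GC box (GGGCGG), the E-box (CACGTG), the cAMP response element (TGACGTCA), the AP-1 site (TGANTCA) or the TATA box (TATAAA).
Gtsf1 (chr7:136435885-136436134, minus strand): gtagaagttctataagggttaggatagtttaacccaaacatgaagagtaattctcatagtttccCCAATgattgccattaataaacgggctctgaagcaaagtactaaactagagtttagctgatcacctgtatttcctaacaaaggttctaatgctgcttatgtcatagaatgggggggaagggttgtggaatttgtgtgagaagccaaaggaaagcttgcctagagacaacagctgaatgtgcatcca
Capn13 (chr6:27823414-27823663, plus strand): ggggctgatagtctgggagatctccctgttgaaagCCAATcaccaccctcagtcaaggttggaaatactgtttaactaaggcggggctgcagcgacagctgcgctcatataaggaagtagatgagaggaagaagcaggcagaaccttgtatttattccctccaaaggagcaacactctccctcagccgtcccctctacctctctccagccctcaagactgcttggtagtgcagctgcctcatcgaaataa
Ndufv3 (chr20:9613536-9613785, plus strand): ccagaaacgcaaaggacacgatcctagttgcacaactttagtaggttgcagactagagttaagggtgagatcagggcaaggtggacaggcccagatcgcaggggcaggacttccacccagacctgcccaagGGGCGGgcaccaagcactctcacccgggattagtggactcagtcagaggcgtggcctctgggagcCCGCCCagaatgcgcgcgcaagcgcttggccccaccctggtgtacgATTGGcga
Ccdc77 (chr4:155228945-155229194, minus strand): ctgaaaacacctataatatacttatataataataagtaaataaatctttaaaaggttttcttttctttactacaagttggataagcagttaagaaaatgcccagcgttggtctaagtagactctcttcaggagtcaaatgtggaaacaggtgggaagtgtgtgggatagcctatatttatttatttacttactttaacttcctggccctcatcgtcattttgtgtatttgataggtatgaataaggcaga
The windows of Gtsf1 and Capn13 each held 1 CCAAT box, at 186 and 215 bases before the start. The Ndufv3 window held 1 CCAAT box and 2 GC boxes (GGGCGG), and the Ccdc77 window held no match to the letters searched. Of the windows not shown, Polq held 1 GC box and Pcbp2 held 2, and neither held a CCAAT box. The Aldh3b3 window, for LOC688778, held 1 CCAAT box. Over the 33469 promoters in the table, 34.0% held the CCAAT box, 30.5% the GC box, 12.9% the TATA box, 6.34% the AP-1 site, 5.59% the E-box and 1.59% the cAMP response element. The windows differed in CpG dinucleotides, with 1 in Gtsf1, 2 in Ccdc77, 5 in Capn13, 13 in Ndufv3, 12 in Polq and 30 in Pcbp2, against a median of 5.00 over all promoters. A match is a run of letters in the window and says nothing of binding.

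Gtsf1 was lower in METH in every one of the 16 types, with 15 of the 16 intervals below 0. In excitatory neurons it had 2319 UMIs (104 CPM) in METH and 5872 UMIs (232 CPM) in saline, a ratio of -1.15 (-1.22 to -1.08). In inhibitory neurons it had 207 UMIs (24.0 CPM) in METH and 438 UMIs (74.4 CPM) in saline, a ratio of -1.63 (-1.88 to -1.39). It passed the size rule in all 11 types in which it was measured, where the share of all measured genes past the rule and lower in METH ran from 0.0996% in layer 5/6 NP neurons to 0.686% in astrocytes, with 0.234% in layer 2/3 IT, 0.207% in layer 4/5 IT, 0.240% in layer 5/6 IT, 0.196% in layer 5 ET, 0.218% in layer 6 CT, 0.139% in Pvalb, 0.288% in Sst, 0.116% in Vip and 0.580% in oligodendrocytes.

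Its level followed cell type in both libraries. The highest type in both was layer 4/5 IT, at 189 CPM in METH and 363 CPM in saline, followed by layer 2/3 IT at 128 CPM in METH and 266 CPM in saline. Endothelial nuclei, with 22 METH and 36 saline UMIs, stood close at 127 CPM in METH and 214 CPM in saline, and their intervals overlapped those of layer 2/3 IT in both libraries. Mural nuclei had 56.3 CPM in METH and 242 CPM in saline, on 10 METH and 49 saline UMIs. Layer 5 ET neurons followed among the excitatory types at 98.2 CPM in METH and 189 CPM in saline, then layer 5/6 IT at 59.2 CPM in METH and 142 CPM in saline. Layer 6 CT neurons had 25.0 CPM in METH and 76.0 CPM in saline, and layer 5/6 NP neurons 17.4 CPM in METH and 82.3 CPM in saline, so that the counting intervals of these last types overlapped within each library. The 5 inhibitory types lay between 17.6 and 35.3 CPM in METH and between 60.9 and 112 CPM in saline. The counting intervals of Pvalb, Sst, Lamp5 and Sncg neurons overlapped within each library.

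The Gtsf1 ratio was not of one size. It ran from -2.25 (-2.93 to -1.60) in layer 5/6 NP to -0.94 (-1.16 to -0.73) in layer 5 ET, around a common ratio of -1.11 over the 11 measured types, and 6 of the 11 intervals held that common ratio. The spread between types left after counting error was 0.27 (SD, log2), above the 90th percentile of 0.187 over the 7398 genes measured in at least 5 types. Only Poisson counting error is taken out, and the part of variance among nuclei beyond Poisson, given below for Gtsf1, was not tested. The ratio in excitatory neurons minus that in inhibitory neurons was 0.48 (0.23 to 0.73), and glial and vascular types together minus excitatory neurons was -0.52 (-0.82 to -0.22). Layer 5/6 NP minus layer 4/5 IT was -1.30 (-1.94 to -0.66), while layer 2/3 IT minus layer 4/5 IT was -0.11 (-0.27 to 0.05). The remaining pairs compared for Gtsf1 also had intervals that hold 0.

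Glial nuclei also held Gtsf1. Astrocytes had 46.3 CPM in METH and 117 CPM in saline, a ratio of -1.33 (-1.82 to -0.87), and oligodendrocytes 37.8 CPM in METH and 173 CPM in saline, a ratio of -2.20 (-2.87 to -1.57). Excitatory marker genes were also counted in these nuclei: 5 of them stood in the glial and vascular types at 7.70% to 41.9% of their excitatory level in METH and 16.0% to 61.6% in saline. Gtsf1 stood there at 27.5% to 122% of its excitatory level in METH and at 50.4% to 104% in saline, and the part of free RNA in the glial ratios was not tested.

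Depth moved with the Gtsf1 level. Over excitatory nuclei grouped by their UMIs, in bins chosen after the values were seen, the METH level was 145 CPM under 4000 UMIs, 124 CPM from 4000 to 8000, 113 CPM from 8000 to 16000 and 68.2 CPM from 16000. The saline level was 355, 273, 188 and 152 CPM in the same bins, and the ratios were -1.29, -1.13, -0.74 and -1.15. With METH and saline nuclei of each type matched on UMIs, Gtsf1 was at 121 CPM in METH and 191 CPM in saline in excitatory neurons, a ratio of -0.65 (-0.74 to -0.57). The matched ratio was -0.50 (-0.76 to -0.24) in layer 5 ET, -0.52 (-0.66 to -0.38) in layer 4/5 IT and -0.70 (-0.84 to -0.56) in layer 2/3 IT. It was -2.11 (-3.15 to -1.19) in layer 5/6 NP, -1.19 (-1.71 to -0.69) in layer 6 CT and -1.49 (-1.82 to -1.18) in inhibitory neurons, and among the types it passed the size rule in layer 6 CT, Pvalb and Sst neurons, 3 in all. Layer 5/6 NP held 12 METH and 52 saline UMIs after matching, under the minimum. Matching also moved the counts of types past the size rule for other genes: Polq, Pcbp2, the first Ndufv3 row, Capn13 and Alg11 passed in 1 type each, and Ccdc77 in 0.

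Gtsf1 was also uneven among nuclei. At least 1 Gtsf1 UMI was found in 46.1% of METH and 66.0% of saline excitatory nuclei. After each nucleus was thinned to 1000 UMIs the shares were 10.5% in METH and 21.0% in saline, and in astrocytes, as a comparison, 4.49% in METH and 12.3% in saline, where the shares before thinning were 11.7% in METH and 22.8% in saline. The variance of its UMIs over the Poisson expectation was 2.29 in METH and 2.14 in saline, higher than for 99.0% of genes in METH and 99.4% in saline. The genes compared held 50 to 8000 UMIs, and the rank takes no account of level. The excitatory class mixes layers with different Gtsf1 levels, and the other 8 rows lay between 1.03 and 1.21 there, on fewer UMIs than Gtsf1.

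Capn13 was the lowest gene of all in METH by the bound nearest to 0, in excitatory neurons (rank 1 of 12038) and in inhibitory neurons (rank 1 of 10011). In inhibitory neurons it had 52 UMIs (6.02 CPM) in METH and 138 UMIs (23.4 CPM) in saline, a ratio of -1.96 (-2.45 to -1.49). In excitatory neurons it had 106 UMIs (4.76 CPM) in METH and 486 UMIs (19.2 CPM) in saline, a ratio of -2.01 (-2.33 to -1.70). Of all genes measured, 0.415% passed the size rule and were lower in excitatory neurons and 0.240% in inhibitory neurons; 10 of 9875 genes (0.101%) did so in both classes, and Gtsf1 and Capn13 were 2 of the 10. With nuclei matched on UMIs the excitatory Gtsf1 ratio of -0.65 (-0.74 to -0.57) no longer passed, while Capn13 passed in both classes. The 10 also held Apoe, an astrocyte gene (-0.80 in excitatory and -0.91 in inhibitory neurons), named after its values were seen; the part of RNA from other cells in these ratios was not tested. In the other direction 1 gene (0.0101%) did so in both classes, LOC103691005, which is no member and is named after its values were seen.

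On its few UMIs, Capn13 had intervals that held 1 common ratio over types. Its METH level lay between 1.93 CPM in layer 5/6 NP and 11.5 CPM in endothelial nuclei, on 2 UMIs, and its saline level between 11.6 CPM in layer 5/6 NP and 35.6 CPM in oligodendrocytes. Only layer 2/3 IT (-2.31), layer 4/5 IT (-2.12) and layer 5/6 IT (-1.36) reached 100 UMIs, and all 3 passed the size rule. With a minimum of 30 UMIs, 8 types were measured and all 8 passed, from -2.31 to -1.36. The spread between types was 0.05, and the common ratio of -1.89 was inside all 8 intervals. The share of all genes past the size rule in each type was not computed at that minimum. Of the 10391 genes measured at it in at least 5 types, 1.03% had a common ratio beyond 1.5-fold, and the median spread was 0.077. Over the 5 excitatory types among the 8 the Capn13 spread was 0.22, with the common ratio of -1.91 inside all 5 intervals. Gtsf1 had a spread of 0.21 over the 6 excitatory types, and the 90th percentile over genes was 0.219 there. Layer 2/3 IT minus layer 5/6 IT was -0.95 (-1.78 to -0.12), 1 pair of 6 compared, and no other interval excluded 0. Capn13 was lower in METH in all 16 types, with 13 of the 16 intervals below 0. The glial and vascular types together were at -1.95 (-2.78 to -1.19) with 18 METH and 70 saline UMIs. At least 1 UMI was found in 4.82% of METH and 12.8% of saline excitatory nuclei, and in 0.328% of METH and 2.24% of saline nuclei after thinning, with 0.473% of thinned astrocytes in METH and 2.37% in saline.

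Polq was lower in METH in both neuron classes. In excitatory neurons it had 235 UMIs (10.5 CPM) in METH and 626 UMIs (24.7 CPM) in saline, a ratio of -1.23 (-1.45 to -1.01), and in inhibitory neurons 47 UMIs (5.44 CPM) in METH and 57 UMIs (9.68 CPM) in saline, a ratio of -0.83 (-1.42 to -0.25) that did not pass the size rule. Excitatory minus inhibitory was -0.40 (-0.99 to 0.20), an interval that holds 0. Among excitatory types the ratio was -1.80 in layer 5 ET, -1.75 in layer 4/5 IT, -1.50 in layer 5/6 IT, -1.09 in layer 6 CT and -0.84 in layer 2/3 IT, and the first 3 passed the size rule. Layer 2/3 IT minus layer 4/5 IT was 0.91 (0.17 to 1.65) and layer 2/3 IT minus layer 5/6 IT was 0.66 (0.05 to 1.27), with a spread between types of 0.36. All other pairs compared for Polq had intervals that hold 0. In saline the highest level was 34.8 CPM in layer 5 ET, and in METH it was 17.3 CPM in endothelial nuclei on 3 UMIs, with 15.2 CPM in layer 2/3 IT the highest neuron level. Astrocytes held 0 UMIs in METH and 3 in saline.

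Pcbp2 had 281 UMIs (12.6 CPM) in METH and 668 UMIs (26.4 CPM) in saline in excitatory neurons, a ratio of -1.06 (-1.27 to -0.86). In inhibitory neurons it had 144 UMIs (16.7 CPM) in METH and 161 UMIs (27.4 CPM) in saline, a ratio of -0.71 (-1.05 to -0.38) that did not pass the size rule. Its level over excitatory types lay between 7.53 CPM in layer 5/6 IT and 17.4 CPM in layer 5/6 NP in METH, and between 21.4 CPM in layer 6 CT and 30.5 CPM in layer 2/3 IT in saline. The ratio was -1.62 in layer 5/6 IT and -1.33 in layer 2/3 IT, which passed the size rule, and -0.68 (-1.10 to -0.29) in layer 4/5 IT. Layer 2/3 IT minus layer 4/5 IT was -0.65 (-1.18 to -0.11). Layer 6 CT, with 42 METH and 53 saline UMIs, was at -0.32 (-0.94 to 0.30), and layer 6 CT minus layer 5/6 IT was 1.30 (0.49 to 2.11). The other pairs compared for Pcbp2 had intervals that hold 0, among them excitatory minus inhibitory neurons at -0.35 (-0.73 to 0.03). RefSeq lists 10 pseudogenes of Pcbp2, which can share reads with it, and the gene overlaps Map3k12, whose ratio was -0.04 (-0.17 to 0.09) in excitatory neurons.

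The 2 Ndufv3 rows differed. The first row, ENSRNOG00000027593, was higher in METH, with 479 UMIs (21.5 CPM) in METH and 248 UMIs (9.79 CPM) in saline in excitatory neurons, a ratio of 1.14 (0.91 to 1.36). In inhibitory neurons it had 189 UMIs (21.9 CPM) in METH and 69 UMIs (11.7 CPM) in saline, a ratio of 0.90 (0.50 to 1.32). The second row, ENSRNOG00000001182, had 1085 UMIs (48.7 CPM) in METH and 1371 UMIs (54.1 CPM) in saline in excitatory neurons, a ratio of -0.15 (-0.27 to -0.04), and its ratio was -0.16 (-0.36 to 0.05) in inhibitory neurons.

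The first row passed the size rule in layer 2/3 IT (1.23), layer 4/5 IT (1.11) and Pvalb neurons (1.35), of 4 measured types, where 0.0746%, 0.0873% and 0.0975% of all genes passed and were higher in METH. In the types where no member passed in that direction, the share was 0.0343% in layer 5/6 IT, 0.0701% in layer 5 ET, 0.0398% in layer 5/6 NP, 0.174% in layer 6 CT, 0.0290% in Vip, 0.139% in Lamp5, 0.0858% in astrocytes, 0.348% in oligodendrocytes, 0.526% in endothelial nuclei, 0.476% in mural nuclei and 0 in Sncg neurons and oligodendrocyte precursors. Over the 8 types with at least 30 UMIs its ratio ran from 0.48 to 1.35. All 8 intervals held the common ratio of 1.05, and the spread between types was 0.00. At that minimum 36.7% of genes measured in at least 5 types had a spread of 0, and the median share of intervals holding the common ratio was 93.8%. The second row passed in none of 9 measured types, with ratios from -0.42 to 0.07 and a spread of 0.01. Its level lay between 36.2 and 70.1 CPM in METH and between 44.1 and 92.2 CPM in saline over the 16 types. The sources used here do not say how the 2 rows divide the gene, RefSeq has 1 gene of this name and 2 pseudogenes, and how reads were split between the rows was not tested.

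LOC688778 was close to absent from inhibitory neurons. In excitatory neurons it had 570 UMIs (25.6 CPM) in METH and 306 UMIs (12.1 CPM) in saline, a ratio of 1.08 (0.88 to 1.29). Inhibitory neurons held 10 UMIs in METH and 4 in saline, which is 4.53% of the excitatory level in METH and 5.63% in saline, where the excitatory marker genes stood at 5.31% in METH and 7.68% in saline. A ratio in inhibitory neurons was therefore not measured.

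Among neuron types LOC688778 was highest in layer 2/3 IT, at 35.3 CPM in METH and 20.2 CPM in saline, and next in layer 4/5 IT, at 30.9 CPM in METH and 11.2 CPM in saline. The METH intervals of these types overlapped, and their saline intervals did not. Layer 5/6 IT had 18.4 CPM in METH and 9.66 CPM in saline, layer 6 CT 18.4 CPM in METH and 8.90 CPM in saline, layer 5 ET 15.7 CPM in METH and 6.50 CPM in saline, and layer 5/6 NP 14.8 CPM in METH and 3.17 CPM in saline. The METH intervals of these 4 types overlapped, and endothelial nuclei held 2 METH and 6 saline UMIs. The ratio was 1.47 (1.06 to 1.89) in layer 4/5 IT, 0.93 (0.42 to 1.46) in layer 5/6 IT and 0.81 (0.49 to 1.13) in layer 2/3 IT. Layer 2/3 IT minus layer 4/5 IT was -0.66 (-1.17 to -0.16). The other pairs compared, layer 2/3 IT minus layer 5/6 IT and layer 6 CT minus layer 5/6 IT, had intervals that hold 0. Layer 4/5 IT alone of the 3 measured types passed the size rule. At least 1 UMI was found in 21.7% of METH and 7.97% of saline excitatory nuclei, and in 2.95% of METH and 1.38% of saline nuclei after thinning, against 0.0778% of METH and 0.0823% of saline thinned inhibitory nuclei. In RefSeq this gene overlaps the annotated gene Aldh3b3l-ps1 and lies among related copies, so its UMIs are uncertain; its relative Aldh3b1, 2 annotated genes away, was at -0.46 (-0.70 to -0.23).

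Ccdc77 was higher in METH in 15 of the 16 types by sign, with 9 of the 16 intervals above 0. In inhibitory neurons it had 337 UMIs (39.0 CPM) in METH and 114 UMIs (19.4 CPM) in saline, a ratio of 1.01 (0.70 to 1.33), and in excitatory neurons 630 UMIs (28.3 CPM) in METH and 433 UMIs (17.1 CPM) in saline, a ratio of 0.73 (0.55 to 0.91). The class ratio in inhibitory neurons passed the size rule, as did 0.0499% of all genes measured there in that direction, and with nuclei matched on UMIs it was 0.94 (0.57 to 1.31) and did not pass. It passed in Sst neurons alone of 8 measured types, at 45.8 CPM in METH and 17.2 CPM in saline, a ratio of 1.41 (0.84 to 2.01), where 0.0288% of genes passed and were higher. Sst minus Pvalb was 0.65 (-0.09 to 1.38) and excitatory minus inhibitory neurons was -0.28 (-0.64 to 0.07), intervals that hold 0. The ratios ran from 0.48 in layer 5/6 IT to 1.41, 7 of 8 intervals held the common ratio of 0.72, and the spread between types was 0.13. Its level was highest in astrocytes, at 56.6 CPM in METH and 40.1 CPM in saline, where the ratio was 0.50 (-0.07 to 1.07). Ccdc77 overlaps Kdm5a, whose ratio was -0.02 (-0.08 to 0.05) in excitatory neurons.

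Alg11 was higher in METH in all 16 types by sign, with 10 of the 16 intervals above 0. In inhibitory neurons it had 260 UMIs (30.1 CPM) in METH and 95 UMIs (16.1 CPM) in saline, a ratio of 0.90 (0.56 to 1.25), and in excitatory neurons 533 UMIs (23.9 CPM) in METH and 338 UMIs (13.3 CPM) in saline, a ratio of 0.84 (0.64 to 1.04). The excitatory ratio passed the size rule, as did 0.233% of all genes in that direction, and the inhibitory ratio did not, although with nuclei matched on UMIs it was 1.15 (0.74 to 1.57) and passed. The 5 measured types ran from 0.64 (0.17 to 1.12) in layer 5/6 IT to 1.11 (0.52 to 1.73) in Sst neurons, and none passed the size rule. All 5 intervals held the common ratio of 0.83, with a spread between types of 0.00. Over all genes measured in at least 5 types, the median share of intervals holding the common ratio was 100%, and 34.1% had a spread of 0. The highest METH level was 42.4 CPM in layer 5/6 NP, where saline had 19.0 CPM. RefSeq lists 3 pseudogenes of Alg11.

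**Figure D1:**
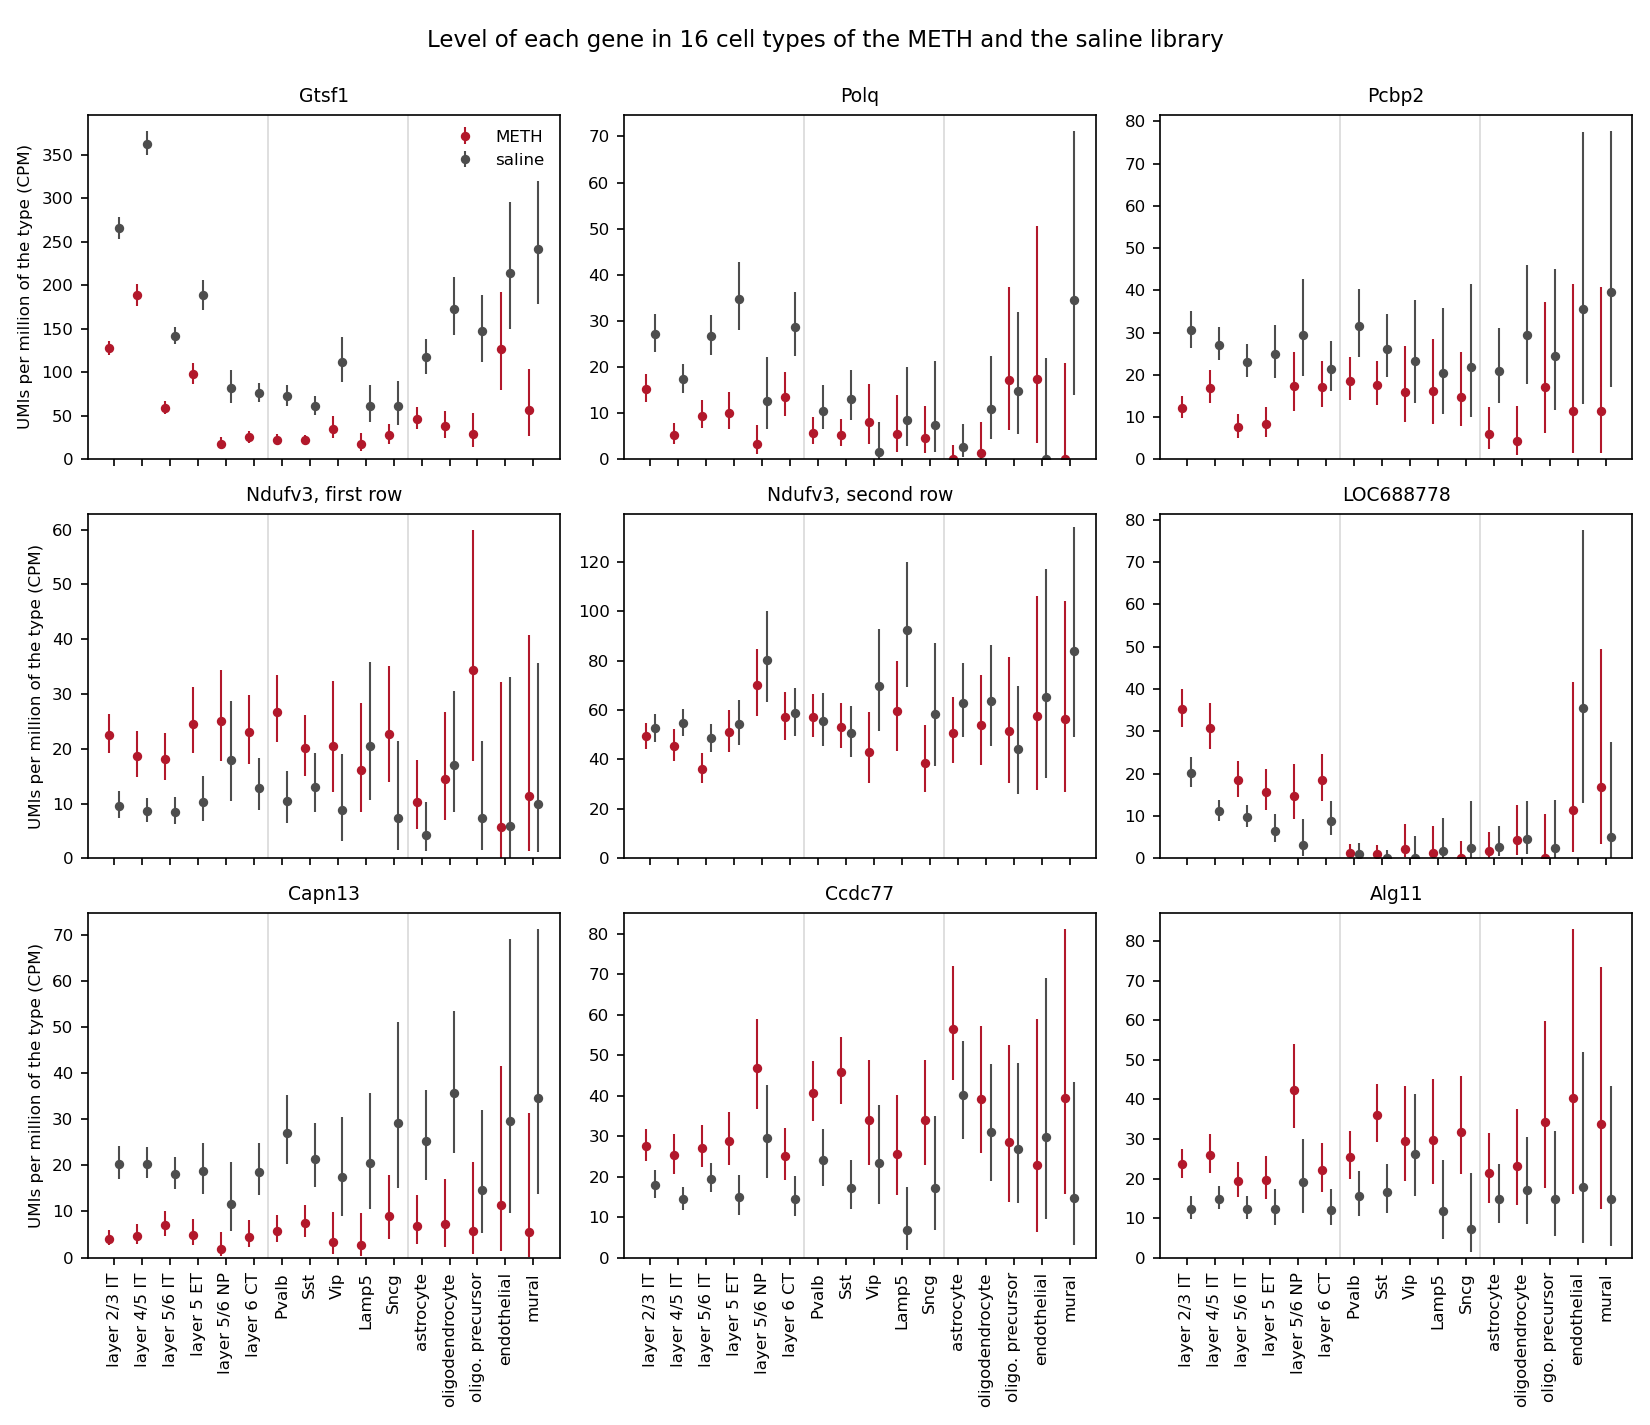
Level of each gene, in CPM, in 16 types of the METH library (red) and the saline library (grey), with exact Poisson 95% intervals; Ndufv3 has 2 panels, first row ENSRNOG00000027593 and second row ENSRNOG00000001182. Gtsf1 is lower in METH in all 16 types and differs over types, LOC688778 is near 0 in inhibitory types, and Capn13 is low in METH in all 16 types.

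**Figure D2:**
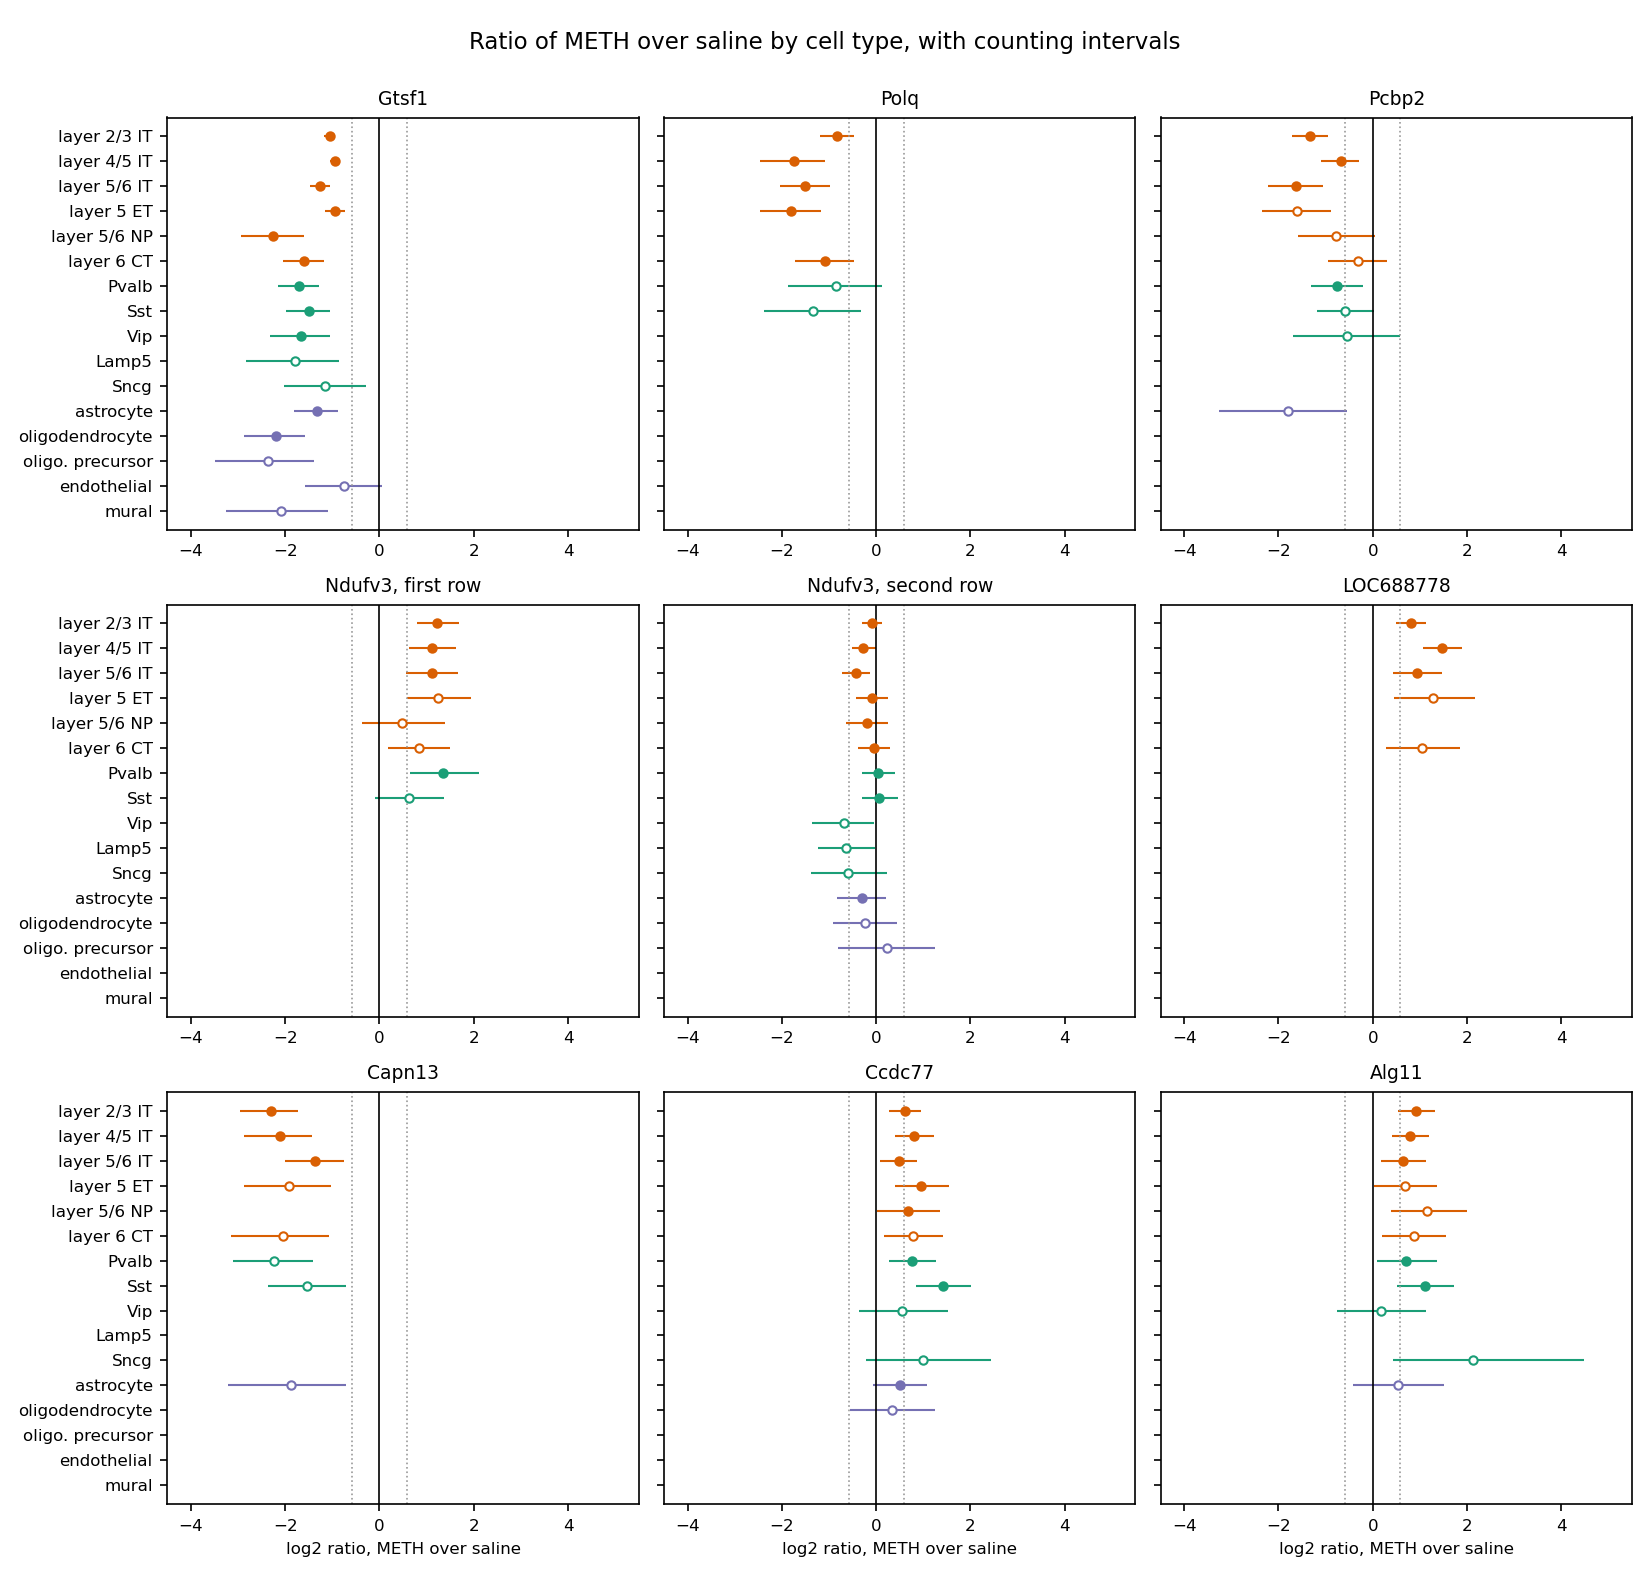
Log2 ratio of METH over saline with its exact 95% counting interval for each gene in types with at least 30 UMIs (orange excitatory, green inhibitory, purple glial and vascular); filled points have at least 100 UMIs and dotted lines mark 1.5-fold. The Capn13, Alg11 and first-row Ndufv3 intervals all hold the common ratio of their gene. So do 10 of 16 intervals for Gtsf1, 6 of 7 for Polq, 8 of 10 for Pcbp2, 4 of 5 for LOC688778 and 11 of 12 for Ccdc77. Intervals on few UMIs are wide and hold a common ratio more readily. Over excitatory types alone the spread is 0.22 for Capn13 and 0.21 for Gtsf1.

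Against the background, between-type spread was small for most genes, and 0 for 34.1% of those measured in at least 5 types. Over 7398 genes measured in at least 5 types the median spread was 0.071, and 32 of them (0.433%) had a common ratio beyond 1.5-fold, with a median spread of 0.216 among those 32. By that measure Gtsf1 (0.27) and Polq (0.36) were spread more than the median of strongly shifted genes, and Ccdc77 (0.13) and Alg11 (0.00) less; Pcbp2, first-row Ndufv3, LOC688778 and Capn13 were measured in under 5 types. Genes past the size rule in most of their measured types numbered 4 of 7398 (0.0541%) lower in METH and 0 higher: Gtsf1, Polq, Cst3 (a secreted cystatin) and the mitochondrial Mt-nd4l.

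The other genes were read in the same depth bins. In the 4 depth bins of excitatory nuclei, from low to high, Alg11 was at 0.75, 1.05, 1.17 and 0.42, and Capn13 at -1.32, -2.85, -1.46 and -1.85. First-row Ndufv3 was at 1.58, 1.51, 1.20 and 1.53, and LOC688778 at 1.74, 1.22, 1.16 and 1.10. Polq was at -1.63, -1.57, -1.04 and -1.12, Pcbp2 at -0.35, -0.79, -1.06 and -0.97, and Ccdc77 at 0.57, 0.77, 0.82 and 0.59. Each of these had 1 sign in all 4 bins, while second-row Ndufv3 was at -0.69, -0.01, -0.09 and 0.07. In the lowest bin the intervals of Polq, Pcbp2, Ccdc77, Alg11 and Capn13 held 0, with 3 METH UMIs for Capn13. The Alg11 interval also held 0 in the highest bin (-0.22 to 1.11). The METH level of first-row Ndufv3 was also lower in deeper nuclei, at 31.9, 33.1, 20.3 and 14.5 CPM in METH and 10.7, 11.6, 8.81 and 5.04 CPM in saline. In nuclei matched on UMIs the excitatory ratio was -1.29 for Polq, -0.94 for Pcbp2, 1.34 for first-row Ndufv3, 1.17 for LOC688778, -1.71 for Capn13, 0.59 for Ccdc77 and 1.08 for Alg11.

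**Figure D3:**
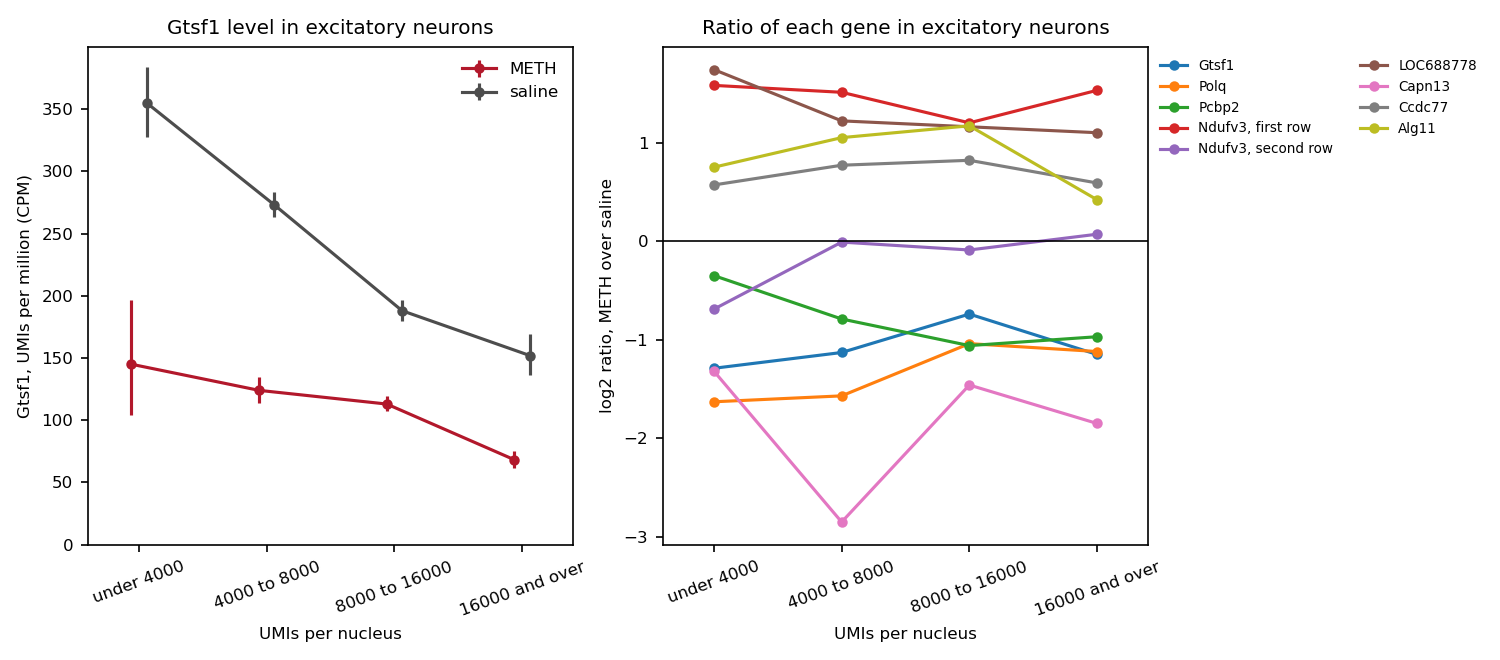
Left, Gtsf1 level in CPM in excitatory nuclei binned by UMIs per nucleus, METH in red and saline in grey with exact Poisson 95% intervals; right, log2 ratio of METH over saline for each gene in the same bins, without intervals. The METH Gtsf1 level runs from 145 to 68.2 CPM and the saline level from 355 to 152 CPM, both lower in deeper nuclei.

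**Figure D4:**
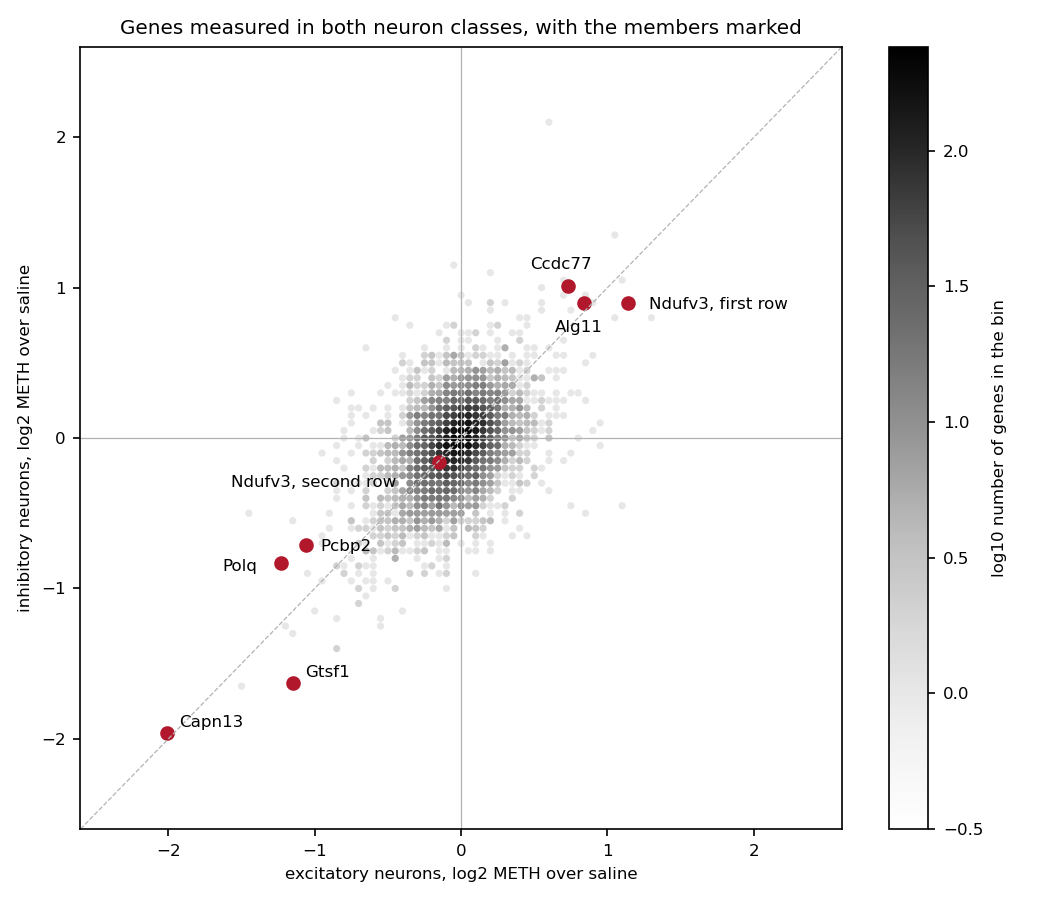
Log2 ratio of METH over saline in inhibitory neurons against that in excitatory neurons, over the 9875 genes measured in both classes (grey, shaded by the number of genes per bin) with the members measured in both marked in red; the dashed line is equality. Of the members, Capn13 and Gtsf1 lie lowest, first-row Ndufv3, Alg11 and Ccdc77 highest, and second-row Ndufv3 near 0.

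Genes with a pattern over types most like a member were looked up among all genes measured in the same types, as the smallest root mean square difference of log2 ratio. Over 11 types the nearest to Gtsf1 among 1858 other genes were Cst3 (0.758) and Apoe (0.761). Nearest does not mean alike, and these differences were the largest of those given here. Over 8 types the nearest to Ccdc77 were Il12rb2 (0.385) and Synj2bp (0.485), and over 5 types the nearest to Alg11 were Gapdhs (0.337) and Il12rb2 (0.365). Over 5 types Atp6ap1l (0.491) was among the 2 nearest to Polq, and over 9 types the nearest to second-row Ndufv3 were Thada (0.0892) and Trip11 (0.0937).

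Partner genes of the members in their pathways were read from 7 lists. In excitatory neurons 0 of the 64 measured list genes passed the size rule, beside 0.233% of all genes higher and 0.415% lower, and in inhibitory neurons 0 of 56, beside 0.0499% higher and 0.240% lower. With backgrounds this low a count of 0 is not a result about the lists. List medians lay between -0.19 and -0.02 in excitatory neurons and between -0.13 and 0.02 in inhibitory neurons, against -0.023 in excitatory and -0.014 in inhibitory neurons over all genes. Among piRNA pathway genes Tdrkh, a tudor-domain partner of PIWI proteins, had 29.5 CPM in METH and 30.0 CPM in saline, and Piwil2 had 74 UMIs in METH and 96 in saline. For Polq, the non-homologous end joining kinase gene Prkdc was at -0.01 (-0.10 to 0.08) and the paralog polymerase gene Poln at -0.21 (-0.29 to -0.14). The Pcbp2 relatives Pcbp3 (-0.02) and Pcbp4 (-0.05) and the complex I core subunit gene Ndufs1 (-0.07) were near 0, while the core subunit gene Ndufv2 was at 0.22 (0.11 to 0.32). The calpain inhibitor gene Cast was at -0.16 (-0.23 to -0.08), and Dpagt1, which encodes the first enzyme of the lipid-linked oligosaccharide pathway, was at 0.34 (0.20 to 0.49).

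Genes beside the members on the chromosome were read from the order of annotated genes in GRCr8. Nek5, which encodes a NIMA-related kinase and stands next to Alg11, had 306 UMIs (13.7 CPM) in METH and 87 UMIs (3.43 CPM) in saline in excitatory neurons, a ratio of 2.00 (1.65 to 2.36) that passed the size rule. Nek3, the next gene after Nek5, was at 0.05 (-0.20 to 0.31). At a background of 0.233% of genes higher and 0.415% lower, no call among so few other neighbours is not a result about them. The nearest measured gene to Capn13, Galnt14, was at -0.25 (-0.33 to -0.17), and Cbs, 3 annotated genes from Ndufv3, was at 0.76 (0.16 to 1.37) on 61 METH and 41 saline UMIs. Pcbp2 and Gtsf1 lie on chromosome 7 with 37 annotated genes between them, of which 10 were measured in excitatory neurons. Their median ratio was -0.03, between -0.46 (Npff) and 0.12 (Cbx5), and 0 of these 10 passed the size rule, a count near the same background.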

How the data were processed

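Nuclei of rat orbitofrontal cortex were measured by single-nucleus RNA-seq in 1 METH and 1 saline library of 4 animals each. The deposited matrices hold UMI counts per gene and barcode, which, per the file headers, Cell Ranger 7.0.0 wrote. The submitters' processing notes name hg38, which the rat gene identifiers of the files do not match; the rat build, the annotation and the strand setting of the counting are details not given in the sources used here. Members and lists were chosen with earlier results of these data known.

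A barcode needed 500 detected genes and no more than 5% of UMIs from mitochondrial genes, and Scrublet in scanpy 1.11.5 (expected rate 0.06) removed 320 METH and 402 saline barcodes as doublets. Nuclei were clustered with igraph 0.11.9 without the member genes. Clusters were named from fixed markers, with naming thresholds set after marker levels were seen, so class names are rebuilt and not the study's. A neuron cluster led by glial and immune genes was set aside. UMIs were summed per type and library. Ratios carry exact conditional binomial 95% intervals, and levels carry exact Poisson intervals. A gene's common ratio is the inverse-variance mean over types and its spread the SD between types left after counting variance. No edgeR or DESeq2 test was possible with 1 library per group; edgeR 4.0.16 TMM and DESeq2 1.42.0 size factors served as scaling alternatives. The size rule was checked on simulated data. Shares of nuclei were also computed after thinning to 1000 UMIs, and the matched comparison drew METH and saline nuclei of like UMIs within each type. Named genes were the 8 members, the 2 to 4 most counted genes of each partner list, 3 annotated neighbours on either side, and for members measured in at least 5 types the 2 genes nearest in ratio, 1 of which is not reported here. Mt-nd4l, LOC103691005 and Cbx5 fall outside these rules and were named after their values were seen. Alternatives covered filters, doublets, clustering, depth, scaling and the UMI minimum.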

Additional observations from a re-analysis of the deposited data

Results flagged for a closer look

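Nuclei of clusters that received no cell type name lie outside the 16 types, and 3 of the genes had ratios above 0 there with intervals that exclude 0. Most of these UMIs lie in the set-aside neuron cluster described under the other observations, with 140 of the 181 METH and 24 of the 29 saline Alg11 UMIs. Alg11 had 181 UMIs (28.6 CPM) in METH and 29 UMIs (8.62 CPM) in saline in those nuclei, a ratio of 1.73 (1.16 to 2.35). LOC688778 had 100 UMIs (15.8 CPM) in METH and 27 UMIs (8.03 CPM) in saline, a ratio of 0.98 (0.35 to 1.65). The first Ndufv3 row had 107 UMIs (16.9 CPM) in METH and 32 UMIs (9.51 CPM) in saline, a ratio of 0.83 (0.25 to 1.45). Ccdc77, with 169 UMIs (26.7 CPM) in METH and 83 UMIs (24.7 CPM) in saline, was at 0.12 (-0.27 to 0.51). LOC688778 and the first Ndufv3 row did not pass the size rule there. Lower in METH in the same nuclei, and past the rule, were Gtsf1 at -1.43 (-1.61 to -1.25), Polq at -1.40 (-1.96 to -0.85) and Pcbp2 at -1.38 (-1.83 to -0.95). The share of all genes past the rule was not computed for these nuclei, so the calls have no background beside them. The unnamed clusters held 532 METH and 329 saline nuclei, and 1 of them held 203 METH nuclei and 1 saline nucleus.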

How the results depend on the processing

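No paired analysis was possible because each group is 1 library. Of the recomputed values, 230 stayed within the set limits, 30 moved and 1 changed sign. Matching nuclei on UMIs gave Gtsf1 -0.65 in excitatory neurons, and the types past the size rule then numbered 3 for Gtsf1, 1 each for Polq, Pcbp2, the first Ndufv3 row, Capn13 and Alg11, and 0 for Ccdc77. Apart from Gtsf1, the types lost by matching held fewer UMIs of the gene than the minimum. Thinning to 1000 UMIs gave -2.48 for Capn13 and 1.35 for Alg11 in inhibitory neurons and 0.21 for the second Ndufv3 row in excitatory neurons, a change of sign; the types past the rule were 1 for Gtsf1 and 0 for Polq, Pcbp2, the first Ndufv3 row, LOC688778, Capn13 and Ccdc77, with fewer UMIs to count. Without doublet removal Pcbp2, the first Ndufv3 row and Alg11 passed in 1 type each. With at most 1% mitochondrial UMIs the first Ndufv3 row passed in 1 type, and with clustering resolution 2 it and Pcbp2 passed in 1 each. Pcbp2 also passed in 1 type at resolution 0.5 and with libraries centred, and Alg11 in 1 without the highest nucleus of each library. With a minimum of 30 UMIs Capn13 passed in 8 types. With no minimum Capn13 passed in 11 and Pcbp2 in 4, and all genes past the rule in excitatory neurons numbered 123 (50 higher and 73 lower), against 78 (28 and 50). Shares of all genes in each type were computed only at the minimum of 100 UMIs. TMM factors moved the oligodendrocyte median by 0.175 and DESeq2 factors by 0.139 on the log2 scale. Weighting nuclei equally gives no interval, so its count of types was not run. Counting the set-aside cluster as excitatory, an alternative chosen after seeing the data, gave -1.18 for Gtsf1. Other causes were not tested.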

Other observations

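The neuron cluster set aside for its glial and immune leading genes held 191 METH and 238 saline nuclei. The values here are for 176 METH and 227 saline nuclei of it that also share 1 cluster of the first clustering, and they are part of the unnamed nuclei given above. Alg11 had 30.1 CPM in METH and 7.83 CPM in saline there, a ratio of 1.94 (1.31 to 2.63). Capn13 had 3.87 CPM in METH and 18.9 CPM in saline, a ratio of -2.29 (-3.14 to -1.51), and Gtsf1 73.7 CPM in METH and 175 CPM in saline, a ratio of -1.25 (-1.45 to -1.05). Ccdc77 had 27.1 CPM in METH and 25.5 CPM in saline, a ratio of 0.09 (-0.33 to 0.52). Nek5, the neighbour of Alg11, had 41 METH and 8 saline UMIs in inhibitory neurons, a ratio of 1.81 (0.69 to 3.11) under the UMI minimum.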
